A study of Mus musculus with 2 samples.

Results

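The 3 mouse genes that make miR-7 (Mir7-1, Mir7-2 and Mir7b) and Mir671 were followed in microRNA sequencing of the left cerebral cortex. They were taken by symbol from the microRNA genes of the count tables, 4 genes of 2202. The tissue came from male B6CASTF1/J mice aged 36 days, a first-generation hybrid strain, with no treatment or engineered allele named in the labels. The 2 libraries form 1 group, from animals numbered 3 (replicate 1) and 4 (replicate 2), so no conditions can be compared. Both animals carry the same donor identifier, and p-values below compare these libraries only. RNA shorter than 30 bases was sequenced, and whole cortical tissue was used, so fewer cells of a type and less RNA per cell cannot be told apart.

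MicroRNAs are cut from a hairpin precursor that can release a mature strand from its 5′ arm (5p) and another from its 3′ arm (3p). Bases 2 to 8 of the mature strand, the seed, pair with target RNAs. miR-7 is a deeply conserved microRNA of neurons and neuroendocrine cells. In brain it binds Cdr1as, a circular RNA of neurons that is dense in miR-7 seed matches, and miR-671 can direct the cutting of Cdr1as through a site of extended pairing. Oip5os1 (Cyrano), a long non-coding RNA, triggers the destruction of miR-7 through a site of extended pairing.

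The mature strands show which of the 4 genes can be told apart by their reads. They are the RefSeq entries (GRCm38.p6), 5′ to 3′, with the seed in capitals.
mmu-miR-7a-5p: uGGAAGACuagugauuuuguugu
mmu-miR-7b-5p: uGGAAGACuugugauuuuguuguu
mmu-miR-671-5p: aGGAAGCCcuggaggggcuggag
mmu-miR-7a-1-3p: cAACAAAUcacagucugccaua
mmu-miR-7a-2-3p: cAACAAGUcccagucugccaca
mmu-miR-7b-3p: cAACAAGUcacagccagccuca
mmu-miR-671-3p: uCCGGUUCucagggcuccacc
Mir7-1 and Mir7-2 both make miR-7a-5p, letter for letter. Counting positions from 1 at the 5′ end, miR-7b-5p differs from it by A10U over the 23 bases they share in length, outside the seed. The miR-7 seed occurs in no other mature name among the 1679 of the RefSeq table. The seed of miR-671-5p is 1 letter away from it, A7C as counted from the 5′ end of the mature strand, and belongs to no other mature name either. The 3p strands differ more: miR-7a-1-3p and miR-7a-2-3p differ by A7G, A10C and U21C, and the first of these lies in the seed. miR-7a-2-3p and miR-7b-3p share their seed and differ at 4 positions (C10A, U14C, U16A and A20U).

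The 3 miR-7 hairpins show where the genes remain distinct around the shared arm. They are printed 5′ to 3′ with both mature strands in capitals, and RefSeq and GENCODE M21 give the same letters.
Mir7-1: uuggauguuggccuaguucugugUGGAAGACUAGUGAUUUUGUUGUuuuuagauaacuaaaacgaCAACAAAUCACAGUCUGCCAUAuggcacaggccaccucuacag
Mir7-2: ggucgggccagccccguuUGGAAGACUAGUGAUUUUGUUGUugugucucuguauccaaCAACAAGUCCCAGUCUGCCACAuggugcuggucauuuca
Mir7b: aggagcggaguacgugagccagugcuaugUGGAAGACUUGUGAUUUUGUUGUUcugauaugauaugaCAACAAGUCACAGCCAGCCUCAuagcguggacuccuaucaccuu
The longest identical stretch of Mir7-1 and Mir7-2 is 24 bases, the whole miR-7a-5p and the base after it. Mir7b shares no stretch longer than 14 bases with either. Of the 22-base windows, about the length of a microRNA read, 84 of 87 in the Mir7-1 hairpin and 73 of 76 in the Mir7-2 hairpin were found in no other annotated microRNA hairpin. The 3 windows of each that were shared cover the miR-7a-5p arm. All 90 windows of Mir7b and all 77 of Mir671 were found in no other hairpin. When 1 mismatch was allowed, 8 windows of Mir7-1, 8 of Mir7-2 and 5 of Mir7b had a partner elsewhere, and Mir671 had none. A read of miR-7a-5p therefore fits both Mir7-1 and Mir7-2, and multi-mapped reads stand in an entry of the tables that names no gene, with 42.8% and 39.9% of all reads in replicates 1 and 2. How many of them are miR-7a-5p was not tested, and the levels of Mir7-1 and Mir7-2 hold only reads assigned to a single locus.

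**Figure D1:**
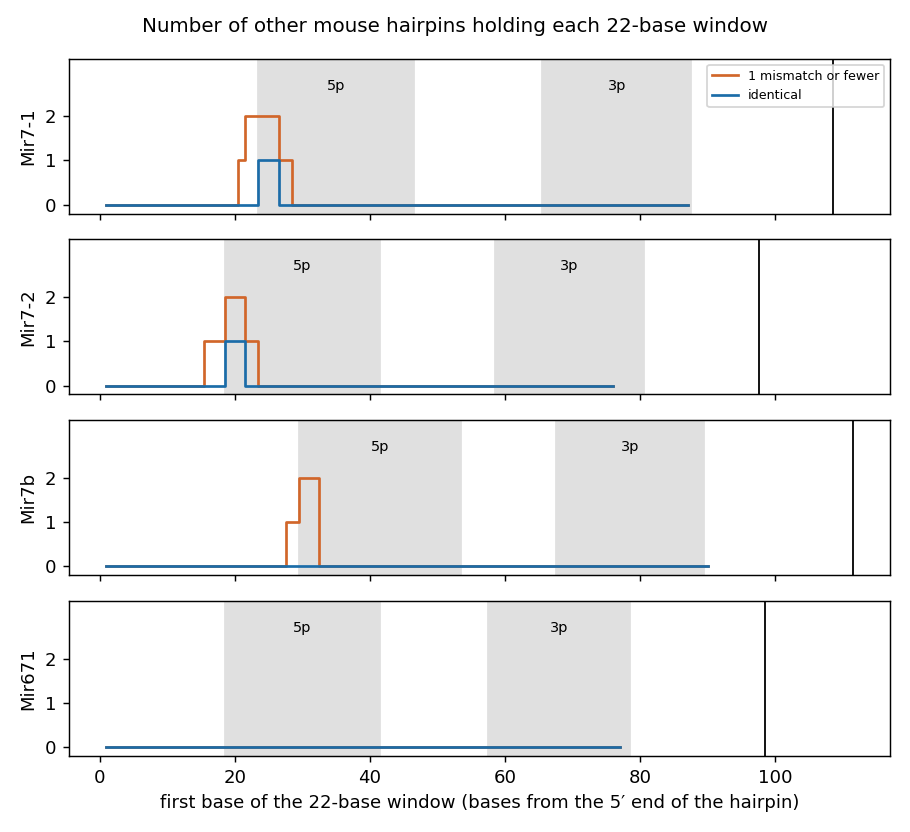
Number of other annotated mouse microRNA hairpins (vertical axis) that hold the 22-base window starting at each base of the hairpin (horizontal axis), identical in blue and with 1 mismatch or fewer in orange. Grey bands mark the mature arms and the black line the end of the hairpin. The identical windows of Mir7-1 and Mir7-2, 3 in each, start at the first bases of the 5p arm, and Mir671 has no shared window.

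The 4 genes lie on separate chromosomes of mm10. Mir7-1 (ENSMUSG00000065434) lies at chr13:58392779-58392886 on the minus strand, in an intron of Hnrnpk, which encodes the RNA-binding protein hnRNP K. All 12 Hnrnpk transcripts that span it have no exon over it. Mir7-2 (ENSMUSG00000065609) lies at chr7:78888277-78888373 on the plus strand between genes, 7481 bp before Aen, which encodes a nuclease. Mir7b (ENSMUSG00000065491) lies at chr17:56242988-56243098 on the plus strand, 183 bp past the end of an annotated long non-coding gene of the same strand and 13712 bp before Fem1a. Mir671 (ENSMUSG00000076387) lies at chr5:24592114-24592211 on the plus strand, wholly inside coding exon 4 of Chpf2, which encodes a chondroitin-synthesising enzyme. It is also opposite exon 12 of Smarcd3, which encodes a subunit of the BAF chromatin remodeller. Both mature strands of miR-671 are thus part of the Chpf2 messenger RNA, and short pieces of that messenger cannot be told apart from miR-671 in the counts. No member had a count on the opposite strand in either library.

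The libraries held 11886775 and 11534730 reads in replicates 1 and 2, of which 4273791 and 4010274 were assigned to microRNA genes on the gene's own strand. Levels are in CPM, own-strand counts scaled to a total of 1000000 per library. They are not divided by hairpin length, since a read covers a whole mature strand. Detection of a gene required 10 CPM or more in each library. Of the neuron markers 6 of 9 were detected. The other 3 are the Mir124a loci, which make the same mature strand, so that its reads fit several loci and their counts hold only reads assigned to a single locus. Mir124a-2 had no count in either library. All 4 members were detected, against 13.6% of all 2202 genes.

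By reads assigned to a single locus, Mir7b was the highest miR-7 gene and Mir671 stood beside it. Mir7-1 and Mir7-2 lay more than an order of magnitude lower. Reads of miR-7a-5p that fit both Mir7-1 and Mir7-2 are left out, so the order of the genes by all their reads is not known. Mir7b, with 8146 and 9961 counts, stood at 1906 CPM in replicate 1 (exact 95% Poisson interval 1865 to 1948, as in all intervals of levels here) and 2484 CPM in replicate 2 (2435 to 2533). The mean was 2195 ± 409 CPM (SD, n = 2), rank 65 among all genes. Mir671, with 8529 and 11660 counts, stood at 1996 CPM (1954 to 2038) and 2908 CPM (2855 to 2961), with a mean of 2452 ± 645 CPM (SD, n = 2) and rank 60. Within a library it held 1.05 times the counts of Mir7b in replicate 1 (95% interval 1.02 to 1.08) and 1.17 times in replicate 2 (1.14 to 1.20), so it was above Mir7b in both, beyond counting error. The ranges of the genes over the libraries overlap.

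Mir7-2 followed with 307 counts, 71.8 CPM (64.0 to 80.3), in replicate 1. In replicate 2 it had 522 counts, 130.2 CPM (119 to 142), so that its mean was 101 ± 41.2 CPM (SD, n = 2) at rank 204. Mir7-1 was the lowest member, with 215 counts or 50.3 CPM (43.8 to 57.5) and 232 counts or 57.9 CPM (50.6 to 65.8). Its mean was 54.1 ± 5.33 CPM (SD, n = 2) at rank 231, and its range did not overlap that of Mir7-2. The intervals cover counting error only.

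**Figure D2:**
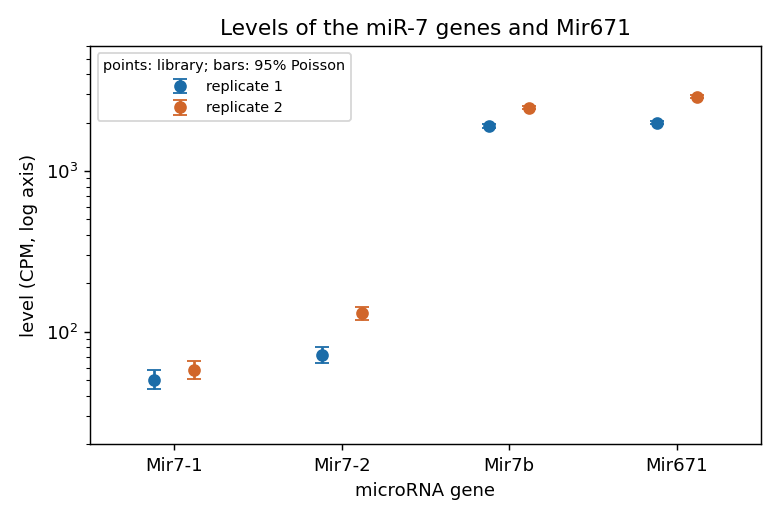
Level of each member (horizontal axis) in CPM on a log axis, with a point for each library and its exact 95% Poisson interval. Mir7b and Mir671 lie between 1906 and 2908 CPM, and Mir7-1 and Mir7-2 between 50.3 and 130.2 CPM.

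Among the counts of the 3 miR-7 genes, Mir7b took 94.0% of 8668 in replicate 1 (exact 95% binomial interval 93.5 to 94.5) and 93.0% of 10715 in replicate 2 (92.5 to 93.4). Mir7-2 took 3.54% and 4.87%, and Mir7-1 took 2.48% and 2.17%. Mir7-2 held 1.43 times the counts of Mir7-1 in replicate 1 (95% interval 1.20 to 1.71) and 2.25 times in replicate 2 (1.92 to 2.64). Mir7b held 37.9 and 42.9 times the counts of Mir7-1. These shares and ratios compare reads assigned to a single locus, not mature microRNAs. A gene's count does not separate its strands, and reads of miR-7a-5p that fit 2 loci are in neither gene. Mir7b shares no mature strand with another locus. The counts therefore give neither the ratio of miR-7b to miR-7a nor the share of each gene in all miR-7 reads.

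Every member had a higher level in replicate 2, and for 3 of the 4 the difference exceeded counting error, against 27.5% of all genes tested that were called higher and 30.4% that were called lower. Mir7-2 differed most, 1.86-fold (log2 ratio 0.90, exact 95% interval 0.69 to 1.11, adjusted p = 5.32e-18). Mir671 was 1.50-fold higher (log2 ratio 0.58, interval 0.54 to 0.62, adjusted p = 1.41e-178), and Mir7b 1.34-fold higher (log2 ratio 0.42, interval 0.38 to 0.46, adjusted p = 3.76e-85). Mir7-1 had a log2 ratio of 0.24 with an interval of -0.03 to 0.52 that includes no difference (adjusted p = 0.125). These are exact two-sided binomial tests against TMM-scaled library sizes, with Benjamini-Hochberg adjustment over 516 genes. Of those genes 57.9% passed in either direction, so a call between these libraries is common.

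Against all genes the members' differences were ordinary in size. Over 511 genes that had counts in each library the median log2 ratio was -0.04, and the median size of a difference was 0.55 on the log2 scale. The size was smaller than that of Mir7-2 for 72.0% of genes and smaller than that of Mir671 for 53.0%. For Mir7b the share was 38.2%, and for Mir7-1 it was 24.1%.

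**Figure D3:**
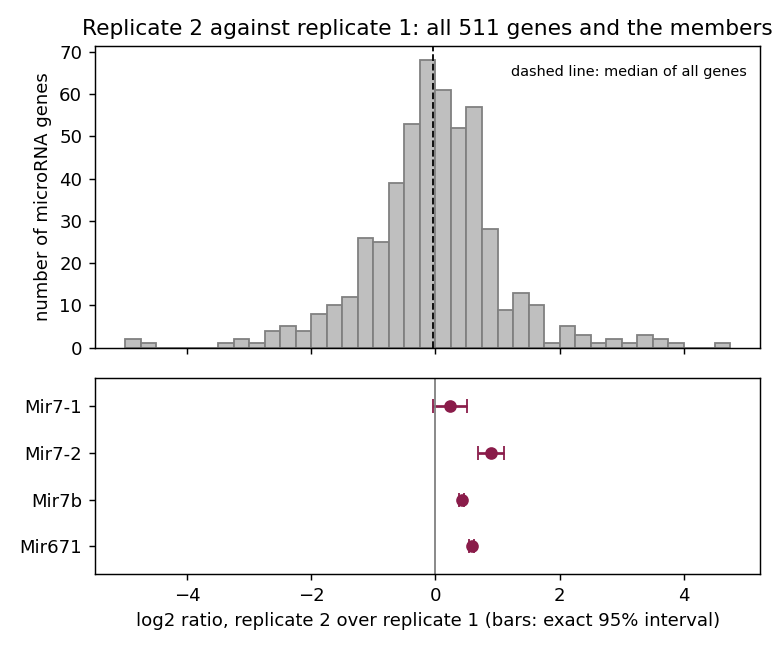
Log2 ratio of replicate 2 to replicate 1 (horizontal axis) for 511 microRNA genes as a histogram (upper panel, number of genes) and for the members with exact 95% intervals (lower panel). The members lie from 0.24 to 0.90, inside the bulk of the histogram, and the interval of Mir7-1 includes 0.

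The members did not all differ between the libraries by the same factor. In 6 pairwise comparisons of members by Fisher's exact test of their counts, chosen after the values were seen, 5 passed after Benjamini-Hochberg adjustment. Mir7-2 differed from Mir7-1 by 0.66 on the log2 scale (95% interval 0.32 to 0.99, adjusted p = 0.000269). Reads of the 5p strand that fit both of these genes are in neither count. Mir671 exceeded Mir7b by 0.16 (0.10 to 0.22, adjusted p = 4.03e-07). For Mir7b and Mir7-1 the difference was 0.18 with an interval of -0.09 to 0.45 (adjusted p = 0.194), which leaves its sign unresolved at these depths. These tests need no scaling between the libraries and cover counting error only.

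Markers of other cell types also differed between the libraries, where 27.5% of all genes tested were higher and 30.4% lower in replicate 2. The summed level of the red cell markers was 83.5 CPM in replicate 1 and 794 CPM in replicate 2, with 2 of 3 higher in replicate 2. That of the epithelial markers was 138 and 386 CPM, with 4 of 5 higher, Mir200b lower, and Mir141 at 0 in replicate 1. The neuron markers summed to 85535 and 53459 CPM, with 2 of 9 higher and 5 lower in replicate 2. Mir132 alone held 54937 and 30022 CPM of these sums, and the 2 that were higher were Mir138-1 and Mir138-2. The oligodendrocyte markers summed to 5098 and 3543 CPM, with 2 of 3 lower. The mural cell markers summed to 5178 and 7691 CPM, with Mir143 higher and Mir145a lower, those of microglia and leukocytes to 2164 and 1989 CPM with 1 of 4 higher and 2 lower, and the endothelial Mir126a stood at 11394 and 10799 CPM. Their part in the members' differences was not tested.

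The genes with the most similar levels were found by the distance of log2(CPM + 1) over both libraries. For Mir7b these were Mir181b-2, at 1926 and 2646 CPM, and Mir671. For Mir671 they were Mir181b-2 and Mir7b. For Mir7-2 they were Mir130b, at 75.6 and 116 CPM, and Mir3547, at 70.4 and 114 CPM. For Mir7-1 they were Snord43, at 49.1 and 55.6 CPM, and mmu-mir-3535, at 42.4 and 60.1 CPM. With 2 libraries the measure gives likeness of level only.

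Other neuronal microRNAs are also made by several loci, and 14 such loci were set beside the miR-7 genes. Of these 10 were detected, against 13.6% of all genes, and 13 were tested. In replicate 2, 2 were higher and 7 lower, against 27.5% and 30.4% of all genes tested. The median level of the loci was 90.1 CPM and their median log2 ratio -0.44. The most abundant were Mir128-1 at 9537 ± 4866 CPM, Mir138-1 at 6323 ± 1458 CPM and Mir138-2 at 3374 ± 334 CPM (SD, n = 2). miR-128 and miR-138 act in neuronal excitability and at synapses. Mir128-1, Mir138-1 and Mir138-2 each share a mature strand with another locus, so reads that fit several loci are left out of these levels. All 3 Mir124a loci, which make the best known microRNA of neurons, stood under 10 CPM in both libraries. As for miR-7a-5p, how many of the multi-mapped reads belong to their shared strand was not tested. Mir7-1 and Mir7-2, at 54.1 and 101 CPM, thus lay close to the median of these loci, and Mir7b well above it. Mir7b, unlike Mir7-1 and Mir7-2, shares no mature strand with another locus, and how far this sets their levels apart was not tested. In the class of Mir7b, 927 genes whose mature strands are all their own, 25.5% were detected, and these had a median of 358 CPM. In that of Mir7-1 and Mir7-2, 57 genes that share some strand with another locus, 59.6% were detected (median 188 CPM). Of 38 genes whose every strand listed in RefSeq is shared, 13.2% were detected (median 267 CPM). These include Mir129-1, at 267 CPM, and Mir219a-2, at 2554 CPM, for each of which only 1 strand was listed.

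**Figure D4:**
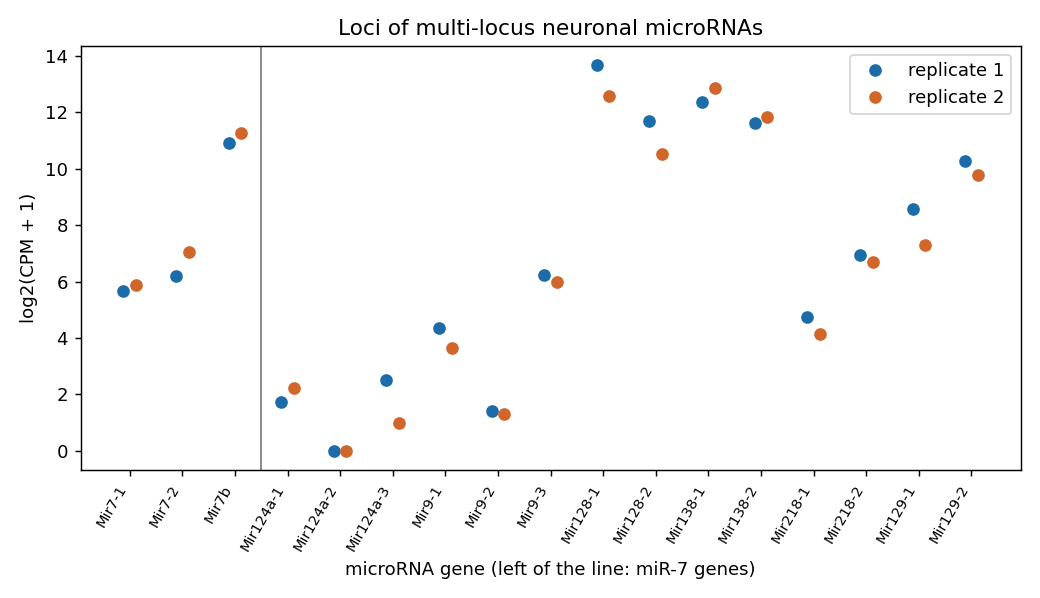
Level as log2(CPM + 1) (vertical axis) of the 3 miR-7 genes, left of the line, and of 14 loci of other neuronal microRNAs made by several genes, with a point for each library. Mir128-1 and Mir138-1 lie highest, and the Mir124a loci lie below Mir7-1.

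Of 6 neuronal microRNAs made by a single gene, 3 were higher and 3 lower in replicate 2. The shares over all genes tested were 27.5% higher and 30.4% lower. Mir132, induced by neuronal activity, stood at 42480 ± 17618 CPM, and its cluster partner Mir212 at 911 ± 298 CPM (SD, n = 2). Mir383 stood at 6144 ± 934 CPM and Mir137 at 5398 ± 677 CPM. Mir134, which acts on dendritic spines, stood at 564 ± 237 CPM and Mir153 at 155 ± 58.9 CPM. Mir375, the endocrine microRNA often found with miR-7 in islets and pituitary, stood at 126 ± 25.4 CPM (SD, n = 2). It was lower in replicate 2 (log2 ratio -0.37, exact binomial test, adjusted p = 8.76e-05), whereas Mir7-2 and Mir7b were higher.

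miR-7 is degraded in a target-directed way, and 8 genes of other microRNAs known for such degradation were listed with it. All 8 were detected, against 13.6% of all genes. In replicate 2, 5 were higher and 1 lower, against 27.5% and 30.4% of all genes tested. The list had a median of 173 CPM and a median log2 ratio of 0.39. Mir335, at 3923 ± 1057 CPM, and Mir322, at 1102 ± 27.4 CPM, were the most abundant. Mir30b stood at 151 ± 43.5 CPM, Mir30c-1 at 195 ± 101 CPM and Mir30c-2 at 354 ± 137 CPM (SD, n = 2). The log2 ratios of these 5 genes ran from 0.09 for Mir322 to 1.15 for Mir30c-1. Mir503 stood at 28.8 ± 9.63 CPM and was the gene that was lower (log2 ratio -0.66). The genes of miR-29b, which is degraded through the Nrep transcript, stood at 62.7 ± 7.59 CPM (Mir29b-1) and 104 ± 7.25 CPM (Mir29b-2), and neither passed. Mir29b-1, Mir29b-2, Mir30c-1 and Mir30c-2 each share a mature strand with another locus, so reads that fit several loci are left out of their levels. By reads assigned to a single locus, Mir7b was above 7 of the 8 genes of the list in mean level, and Mir7-1 above 1. This order is not that of the mature microRNAs, which the counts do not give.

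The letters of the miR-7 targets were read from GENCODE M21 transcripts on mm10, as a description of sequence and not of binding. The exon taken as Cdr1as is that of the annotated non-coding gene C230004F18Rik within which Cdr1 lies on the opposite strand, at chrX:61183248-61186174 on the plus strand, 2927 bases long. The match to the miR-7 seed, GTCTTCC, occurred 123 times on its own strand and 0 times on the other. That is 42.0 matches per kb. In the first 2927 bases of 12720 other genes with a transcript at least that long, 24.2% held a match, and none held more than 4. Neighbouring matches began 17 to 109 bases apart, with a median of 18, from base 26 to base 2851. An A opposite the first base of miR-7 followed 34 of the 123, and 79 lay in the 1554 bases that Cdr1 covers on the other strand.

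The first 3 matches whose next neighbour is at the median distance are printed with the seed match in capitals. The letters before the match differ among them, and an A follows each, as it does 34 of the 123 matches.
Cdr1as chrX:61183258-61183280: ggtgccagtaccaagGTCTTCCa
Cdr1as chrX:61183276-61183298: ttccaacatctccagGTCTTCCa
Cdr1as chrX:61183347-61183369: tcttccagaaaatatGTCTTCCa
The match to the miR-671-5p seed, GGCTTCC, differs from that of miR-7 by 1 letter and cannot lie on exactly the same bases. It occurred 1 time in the exon, at base 2797, and 28.9% of the other genes held it. The match to the miR-671-3p seed, GAACCGG, occurred 0 times, and 8.07% of the other genes held it. Around its 1 match, miR-671-5p paired with the exon at 19 of 23 bases without gaps, written with the paired bases in capitals.
Cdr1as chrX:61186029-61186051: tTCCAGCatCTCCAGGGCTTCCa
In the same stretch of the other 12720 genes, 19 held a window that pairs at as many bases or more. The longest run of pairing beyond the seed was 7 bases for miR-7a-5p at its matches in the exon, with a median of 5.

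Oip5os1, annotated as 1700020I14Rik at chr2:119594297-119607502 on the plus strand, had 2 miR-7 seed matches in a transcript of 8300 bases. Of 935 other genes with a transcript at least as long, 49.4% held a match in their first 8300 bases and 160 held as many or more. With a seed of bases 2 to 7, Oip5os1 held 11 matches, against a median of 4 in the other genes, of which 16 held as many or more. How its number of matches stands among other genes therefore depends on the seed length. On the 5′ side of the match at base 2952, bases 11 to 23 of miR-7a-5p paired in an unbroken run of 13. The loop between held 2 extra bases on the side of Oip5os1. Paired bases are in capitals.
Oip5os1 chr2:119602137-119602161: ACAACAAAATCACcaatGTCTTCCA
The other seed match, at base 762, had a run of 2 bases on its 5′ side. Among 8342 other genes with a miR-7 seed match in their longest transcript, the longest such run was 10 bases, and none reached 13. The run lies where miR-7a-5p and miR-7b-5p have the same letters, since A10U falls in the loop.

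**Figure D5:**
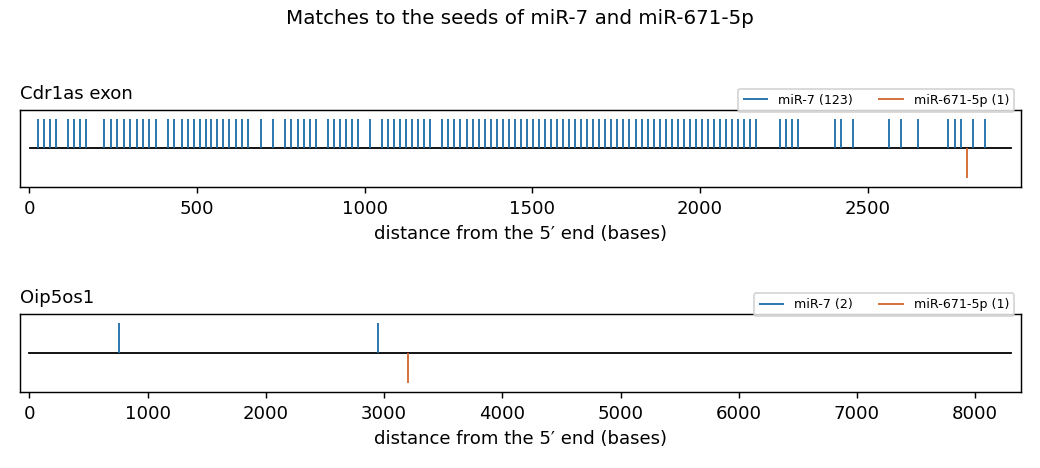
Positions of matches to the seeds of miR-7 (upward lines) and miR-671-5p (downward lines) along the Cdr1as exon and the Oip5os1 transcript, as distance from the 5′ end in bases. The exon holds 123 matches of miR-7 spread over most of its 2927 bases and 1 of miR-671-5p near its 3′ end, and Oip5os1 holds 2 and 1.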

How the data were processed

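MicroRNA sequencing counts of 2 libraries were used. Per the labels and the text files deposited beside the tables, reads were mapped to mm10 with GENCODE M21 as annotation. For the aligner and the counter, names and versions were not given in the sources used here. Deposited tables hold raw counts per microRNA gene, 1 table per library, without a header. Their layout was read as 4 entries that name no gene (unmapped, multi-mapped, unassigned and ambiguous reads) and then unstranded, own-strand and opposite-strand counts. The own-strand column was used. Of all reads, 42.8% and 39.9% were multi-mapped, 16.7% and 20.9% unmapped, and 4.56% and 4.39% mapped outside microRNA genes in replicates 1 and 2, and these stayed out of totals and tests. All 2202 identifiers matched GENCODE M21.

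A count of 0 allows up to 0.702 and 0.748 CPM in replicates 1 and 2 (3 counts). For each gene with at least 10 counts over both libraries, its split between them was tested (binomial, exact, two-sided) against effective sizes from TMM factors of the same genes (edgeR 4.0.16, R 4.3.3), with adjusted p under 0.05. Since 1 group has no contrast, no count model was fitted. The test was tried on simulated counts that held counting error only, without variation between animals. There it called 100% of genes changed 2-fold, 79% of genes changed 1.25-fold and 0.62% of unchanged genes. How often it calls genes that differ only between animals was not tested. Hairpin windows were compared with annotated microRNA hairpins, in place of the genome named in the design, which was not used here. Intervals of count ratios within a library are exact, and those of pairwise differences are Woolf's. DESeq2 1.42.0 size factors, total counts, all reads, unstranded counts, other minimum counts and detection levels, each library alone, other window lengths and a shorter seed were alternatives. Named were the members, their 2 nearest genes, overlapping genes, and of each list other than the cell type markers the 3 most abundant or, up to 8 genes, all. The Mir124a loci and single cell type markers are named because their values were seen. Pairwise tests between members were added after the values were seen. The members and lists were chosen with earlier results of these data known. Statistics were computed with SciPy 1.17.1 and NumPy 2.4.6 under Python 3.11.15, tables with pandas 2.3.3 and plots with Matplotlib 3.10.9.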

Additional observations from a re-analysis of the deposited data

Results flagged for a closer look

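Of the reads of replicate 1, 42.8% were multi-mapped, and of those of replicate 2, 39.9%, a signal in entries of the tables that name no gene and that the levels above do not use. They exceed the 36.0% and 34.8% of reads assigned to microRNA genes. Reads of miR-7a-5p that fit both Mir7-1 and Mir7-2 would belong here. Their number was not tested, since the entries do not split reads by sequence.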

How the results depend on the processing

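Of 69 values recomputed under another setting, 60 stayed within the limit set for their kind, and no log2 ratio changed sign. Log2 ratios had to keep their direction and side of the threshold, and levels to move by less than their SD. Counts of genes, members and seed matches had a limit on their fold change, and window shares an exact binomial interval. Some values could not move. The level in either of 2 libraries always lies within the SD of their mean. Members detected in both libraries are detected in each alone and at a lower floor. Another minimum count leaves a log2 ratio as it is. With all reads of each library as the total in place of assigned reads, the CPM became 19.1 for Mir7-1, 35.5 for Mir7-2, 774 for Mir7b and 864 for Mir671, in the same order. Without the most abundant gene in the totals, Mir7-1 stood at 60.5 CPM. At 100 CPM in place of 10, 2 members were detected. With windows of 26 bases, 100% of those of Mir7-1 and of Mir7-2 were found in no other hairpin. With a seed of bases 2 to 7, Oip5os1 held 11 matches of miR-7, and 16 of 935 other genes held as many or more, against 160 with bases 2 to 8. The log2 ratios of the members stayed above 0 under each scaling, and 3 passed under each. All reads as the scale gave the lowest values, 0.15 for Mir7-1, 0.81 for Mir7-2, 0.33 for Mir7b and 0.49 for Mir671, while the median of all genes moved from -0.04 to -0.13. From each library alone, the levels ranged from 50.3 to 57.9 CPM for Mir7-1 and from 71.8 to 130.2 CPM for Mir7-2. They ranged from 1906 to 2484 CPM for Mir7b and from 1996 to 2908 CPM for Mir671. The depth limits Mir7-1 most, whose interval of the log2 ratio includes 0.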
